A study of Mus musculus with 45 samples.

Results

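Simple epithelia are built from a small set of structural genes, and 9 of them were followed here through early mouse development and in embryonic stem (ES) cells after degradation of the transcription factor GABPA. They are the type II keratins *Krt7* and *Krt8*, the type I keratins *Krt18* and *Krt19*, the claudins *Cldn4*, *Cldn6* and *Cldn7*, the adhesion receptor *Cdh1* (E-cadherin) and the desmosomal linker *Dsp* (desmoplakin). They were chosen by symbol, and each matched 1 gene among the 55385 genes of the tables, in all 18 RNA-seq libraries of the 45 samples in the series.

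All groups carried an FKBP degron tag on both *Gabpa* alleles, so the controls were tagged as well. Embryos were *Gabpa* dTAG/dTAG and were made by in vitro fertilization, and the ES cells were a tagged E14 line, picked as single clones and grown with 2i and LIF (2iES cells). dTAG13, a small molecule that brings the tagged protein to a ubiquitin ligase, was compared with its solvent DMSO. Embryos received 1 μM dTAG13, from 6 to 30 hours post fertilization (hpf) for the late 2-cell (L2C) stage, from 42 hpf for the morula and from 84 hpf for the inner cell mass (ICM) of E4.5 blastocysts, and 2iES cells received 0.5 μM for 24 h. The L2C groups held 3 libraries each and the others 2 each. The ICM libraries hold both epiblast and primitive endoderm (PrE), and immunosurgery was used to take off the outer trophectoderm (TE). The labels name this ICM E4.5, and the paper gives the mid-blastocyst stage for its collection.

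Keratins form filaments from equal parts of a type I and a type II chain, and *Krt8* with *Krt18* are the pair that simple epithelia make first. Claudins are membrane proteins of the tight junction that set which ions pass between cells, E-cadherin joins neighbouring cells at the adherens junction, and desmoplakin ties keratin filaments to the desmosome. In the mouse embryo, E-cadherin acts at compaction of the morula, and the TE is the first tissue to form a sealed, keratin-rich epithelium.

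Libraries held 9457933 to 27660132 rounded expected counts, and those of morulae were the lowest, at no more than 12382705. *Gabpa* messenger RNA was higher in every dTAG13 library than in every DMSO library at each stage, although dTAG13 acts on the protein. Its edgeR adjusted p was under 0.05 at all stages but the morula (0.152). In the ICM its TPM lay at 10.1 to 11.2 in the controls and at 27.3 to 27.5 in the treated libraries (log2 0.95 in the fit). The RNA does not report the level of the protein, so it checks neither the degradation nor which group was treated. Replicates differed by more than sampling noise in every group, but the spread was far smaller in the ICM (edgeR biological coefficient of variation 0.0237) than in 2iES cells (0.159), morulae (0.213) and L2C embryos (0.284), so that smaller differences passed the test in the ICM. The labels do not say what replicates shared, and the p-values measure the spread between these libraries, which may be technical. The samples are bulk, so from the RNA alone fewer cells of a type and less RNA per cell cannot be told apart. For the ICM, the paper reports that numbers of epiblast cells did not yet differ between the treatments at the stage of collection.

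*Krt18* (ENSMUSG00000023043.7, chr15:102028180-102032027, plus strand) and *Krt8* (ENSMUSG00000049382.10, chr15:101996698-102004482, minus strand) are neighbours on GRCm38 with 23697 bases between them. *Krt7* (ENSMUSG00000023039.17, chr15:101411043-101430313) lies on the same chromosome, 566384 bases from *Krt8*. The other genes are spread over the genome: *Krt19* (ENSMUSG00000020911.14, chr11:100140810-100148665), *Cldn7* (ENSMUSG00000018569.12, chr11:69964779-69967885), *Cldn4* (ENSMUSG00000047501.3, chr5:134945119-134946934), *Cldn6* (ENSMUSG00000023906.3, chr17:23679249-23682446), *Cdh1* (ENSMUSG00000000303.12, chr8:106603351-106670246) and *Dsp* (ENSMUSG00000054889.10, chr13:38151294-38198577). Of the 31-base words of *Krt8*, 36.0% also occur in another gene and 32.2% in its pseudogene *Krt8-ps*, and of those of *Krt18* 11.4% do, mostly in *Gm5200*, so their counts depend on how RSEM divided such reads. The libraries do not keep strand, and reads from the antisense genes *Gm36026*, *Gm10129* and *Gm671* cannot be told apart over 5.16% of the exonic bases of *Krt8*, 5.17% of those of *Dsp* and 1.09% of those of *Krt7*.

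GABPA belongs to the ETS family, whose members bind GGAA cores, and the start regions of the genes were therefore read for the letters CCGGAAG on both strands. RefSeq windows of 300 bases on GRCm38.p6 (250 before to 50 after a start) were found for 7 of the genes, *Cldn7* with 2 starts. CCGGAAG was found in 8.86% of all 32851 windows and, among these genes, in both windows of *Cldn7* alone. The letters GCCNNNGGC of AP-2 (16.6% of windows) were found in *Krt7*, *Krt18* and *Dsp*, GGAATG of TEAD (14.7%) in *Cldn6* and *Cldn7*, and AGATAA of GATA (11.2%) in *Krt8*. AP-2, TEAD and GATA factors are regulators of TE genes. *Cldn4* held none of the 4. These are matches of letters and not binding sites. The sequences before the starts of *Cldn7*, *Krt18* and *Krt8* are shown because the results below turn on these genes, 5′ to 3′ in the direction of the gene, without bases of annotated exons, and with the matches in capitals (*Cldn7* CCGGAAG then GGAATG, *Krt18* GCCNNNGGC, *Krt8* AGATAA).
Cldn7, chr11:69964529-69964778, plus strand: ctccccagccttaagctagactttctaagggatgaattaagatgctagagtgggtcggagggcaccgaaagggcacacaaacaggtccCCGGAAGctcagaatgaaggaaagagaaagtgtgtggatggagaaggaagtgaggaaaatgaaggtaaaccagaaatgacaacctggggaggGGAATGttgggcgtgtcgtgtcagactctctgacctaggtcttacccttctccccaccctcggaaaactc
Krt18, chr15:102027966-102028179, plus strand: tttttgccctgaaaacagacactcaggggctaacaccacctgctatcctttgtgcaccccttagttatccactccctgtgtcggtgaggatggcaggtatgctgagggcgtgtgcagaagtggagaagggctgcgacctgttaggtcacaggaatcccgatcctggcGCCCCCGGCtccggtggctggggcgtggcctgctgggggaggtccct
Krt8, chr15:102004483-102004592, minus strand: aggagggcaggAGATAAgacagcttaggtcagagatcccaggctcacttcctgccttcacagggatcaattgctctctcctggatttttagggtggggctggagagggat
The second match of *Cldn7* lies on the minus strand 66 bases before its other start, in a UTR exon of 1 transcript, and is given with 10 bases on each side.
Cldn7, chr11:69965345-69965371, plus strand: ggggccaagaCTTCCGGttcaggtgag

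Control embryos were examined first, to see when the genes are expressed. Levels are given in TPM (a scale per length and per library), and differences between stages are from 1 edgeR fit of all 18 libraries, in which the median of the 21915 genes tested was -0.31 on the log2 scale from L2C to morula, 0 from morula to ICM and 0 from ICM to 2iES cells. To be called, a gene had to differ by 2-fold or more at an adjusted p under 0.05, and its mean FPKM had to reach 1 in either group.

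Between the L2C stage and the morula, 8 of the 9 genes were called higher, in a contrast in which 20.7% of all genes were called higher and 25.3% lower. The median difference of the 9 genes was 4.85 on the log2 scale. *Krt8* was listed at 0.54, 0.41 and 0.22 TPM in the control L2C libraries and at 128 and 131 TPM in control morulae (log2 8.70, SE 0.25, edgeR adjusted p 1.19e-14). *Krt18* went from 1.73, 1.89 and 3.61 TPM to 153 and 181 TPM (log2 6.43, adjusted p 1.67e-11). *Cldn7* went from 10.4, 7.10 and 21.7 TPM to 231 and 270 TPM, which made it the most abundant of the 9 genes in morulae. In none of these 3 genes did the libraries of the stages overlap.

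*Cldn4* held 1 count in the 3 control L2C libraries together and 1880 in the 2 control morula libraries, a ratio of 5940 per total count (exact 95% interval 1060 to 235000, counting error only). *Cdh1* rose by 3.68, *Dsp* by 4.97, *Krt7* by 4.21 and *Krt19* by 3.05 on the log2 scale, although *Krt19* reached only 2.11 and 1.18 TPM in control morulae and was not called without morula DMSO replicate 1 (2.20, adjusted p 0.099). *Cldn6*, a claudin of early embryonic epithelia, was the exception: it stood at 11.8, 17.4 and 8.86 TPM in L2C embryos and at 12.4 and 15.1 TPM in morulae, and the difference of 0.40 did not pass the test (adjusted p 0.14).

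Between the control morula and the control ICM, 6 genes were called lower (12.0% of all genes), with a median of -2.01 for the 9. *Krt7* fell 67.5-fold, to 0.07 and 0.05 TPM from only 6 and 4 counts, *Krt18* fell 9.0-fold, to 22.8 and 24.9 TPM, and *Krt8* fell 4.03-fold, to 39.3 and 42.6 TPM. *Dsp* (log2 -3.31), *Cldn7* (-2.12) and *Cldn4* (-1.88) were the other genes called. *Cdh1* passed the adjusted p but not the fold (-0.55, adjusted p 0.0487), its libraries overlapped, and it lost the adjusted p with library totals (0.0915), without either ICM library (0.084 and 0.13) and without morula DMSO replicate 1 (0.29). *Cldn6* (-0.26, adjusted p 0.454) and *Krt19* (1.07, adjusted p 0.226) did not pass. The genes that fell thus included the keratin pair of simple epithelia, the 2 claudins that had risen into the morula and the desmosomal linker.

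2iES cells differed from the control ICM in both directions. *Krt7* (log2 5.06, adjusted p 0.000123), *Krt18* (2.49, 8.99e-06) and *Cldn4* (1.54, 8.43e-05) were called higher in control 2iES cells, and *Cldn7* was called lower (-1.40, adjusted p 0.000579). These 4 of 9 genes stood beside 22.5% of all genes called in either direction. *Dsp* passed the adjusted p (-2.00, 0.000532) but stayed under the FPKM limit, with 0.11 and 0.13 TPM in 2iES cells. *Krt8* was lower in TPM in 2iES cells (36.9 and 27.4) than in the ICM (39.3 and 42.6) while the fitted difference was 0.26 (adjusted p 0.295), and it was -0.21 with scaling by library totals, so no direction is given for it.

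**Figure D1:**
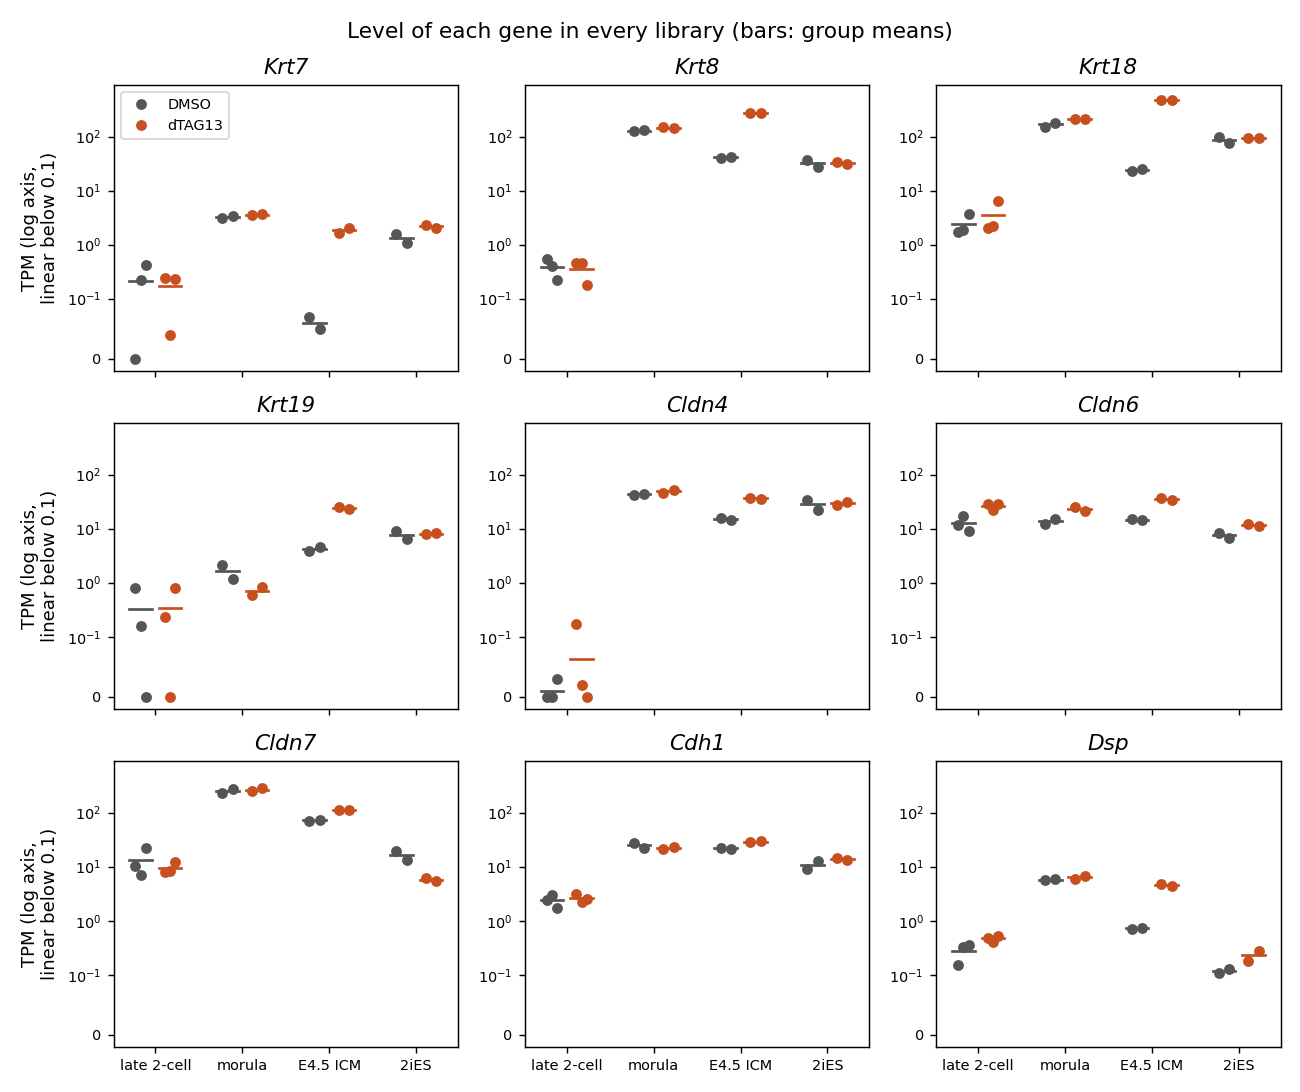
TPM (vertical axis, 1 panel per gene) of the 9 genes in each of the 18 libraries (points), by stage and by treatment with DMSO or dTAG13, with bars at the group means. *Krt8* and *Krt18* reach their highest values in the dTAG13 ICM, at 268 to 481 TPM, and *Cldn7* in morulae, at 231 to 281 TPM.

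With dTAG13 in the ICM, all 9 genes were higher at an adjusted p under 0.05, which held for 38.4% of all 15840 genes tested, and 7 of the 9 were called, against 12.1% of all genes called higher. The median of the 9 genes was 2.59 on the log2 scale, beside 0.01 for all genes tested. In each of the 9 genes both dTAG13 libraries lay above both DMSO libraries in TPM, which was so for 44.8% of all genes tested. Lower with dTAG13 at an adjusted p under 0.05 were 38.5% of all genes, and 13.2% were called lower.

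*Krt18* stood at 22.8 and 24.9 TPM with DMSO and at 476 and 481 TPM with dTAG13 in the ICM. This was a 19.5-fold rise (log2 4.29, SE 0.037, edgeR adjusted p 5.70e-44), and it took *Krt18* from rank 4106 and 3958 among all genes by TPM to rank 351 and 349. Its partner *Krt8* rose 6.41-fold, from 39.3 and 42.6 TPM to 273 and 268 TPM (log2 2.68, SE 0.033, adjusted p 2.26e-39).

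The other 2 keratins rose from low levels. *Krt7* was listed at 0.07 and 0.05 TPM with DMSO and at 1.67 and 2.01 TPM with dTAG13 (log2 4.66, SE 0.32, adjusted p 8.13e-16), a large fold change that left it the least abundant of the 9 genes. *Krt19*, the shortest keratin, which pairs with *Krt8* or *Krt7*, rose 6.01-fold from 3.80 and 4.55 TPM to 24.8 and 23.0 TPM (adjusted p 5.30e-22). The summed level of the 4 keratins was 69.0 ± 4.38 TPM with DMSO and 774 ± 0.806 TPM with dTAG13 (SD, n = 2 each). Type I over type II transcripts of these 4 genes went from a ratio of 0.683 ± 0.0112 to 1.85 ± 0.0330. Among these 4, the 2 types, which pair one to one as proteins, thus did not change in proportion at the RNA level. The ratio leaves out other keratins, such as the type I keratin *Krt10*, at 12.3 and 13.5 TPM with DMSO and 0.39 and 0.12 TPM with dTAG13.

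The 3 claudins rose less than the keratins. *Cldn4* went from 15.4 and 14.2 TPM to 37.3 and 35.8 TPM (2.39-fold, adjusted p 4.49e-20), and *Cldn6* from 15.0 and 14.3 TPM to 36.3 and 34.4 TPM (2.37-fold, adjusted p 3.59e-18). *Cldn7*, the most abundant claudin there, rose from 70.2 and 73.3 TPM to 111 and 110 TPM, which at 1.72-fold stayed under the fold limit (adjusted p 2.91e-18). Its share of the TPM of the 3 claudins went from 69.8% and 72.0% in the DMSO libraries to 60.2% and 61.1% with dTAG13.

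Among the adhesion genes, *Dsp* rose 6.13-fold, from 0.71 and 0.73 TPM to 4.75 and 4.39 TPM (log2 2.62, SE 0.099, adjusted p 7.51e-24). *Cdh1*, which was already expressed, went from 22.3 and 21.4 TPM to 28.4 and 29.3 TPM (1.29-fold, adjusted p 1.26e-10). This small difference passed in the fit of the ICM libraries, but its adjusted p was 0.192 where all 18 libraries shared 1 estimate of the spread.

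The dTAG13 ICM was set beside the control morula, as a description without a test. Of the 9 genes, all but *Cldn6* had been called higher on the way to the morula. *Krt18* and *Krt8* were 2.87 and 2.09 times the control morula mean in TPM, and *Krt19* 14.5 times, although the control ICM already held 2.54 times the morula mean of *Krt19*. *Cldn6* was 2.57 times the morula mean. *Cdh1* was 1.17, *Cldn4* 0.854 and *Dsp* 0.793 times the morula mean, while *Krt7* reached 0.558 and *Cldn7* 0.442 times. The keratin pair therefore exceeded its morula level in TPM, and *Cldn7* did not return to it. These are ratios of TPM as deposited, without the scaling of the fits. For *Cdh1* the fit of all 18 libraries gave -0.55 from control morula to control ICM and 0.39 with dTAG13 in the ICM (log2). No direction against the morula is therefore given for *Cdh1*.

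**Figure D2:**
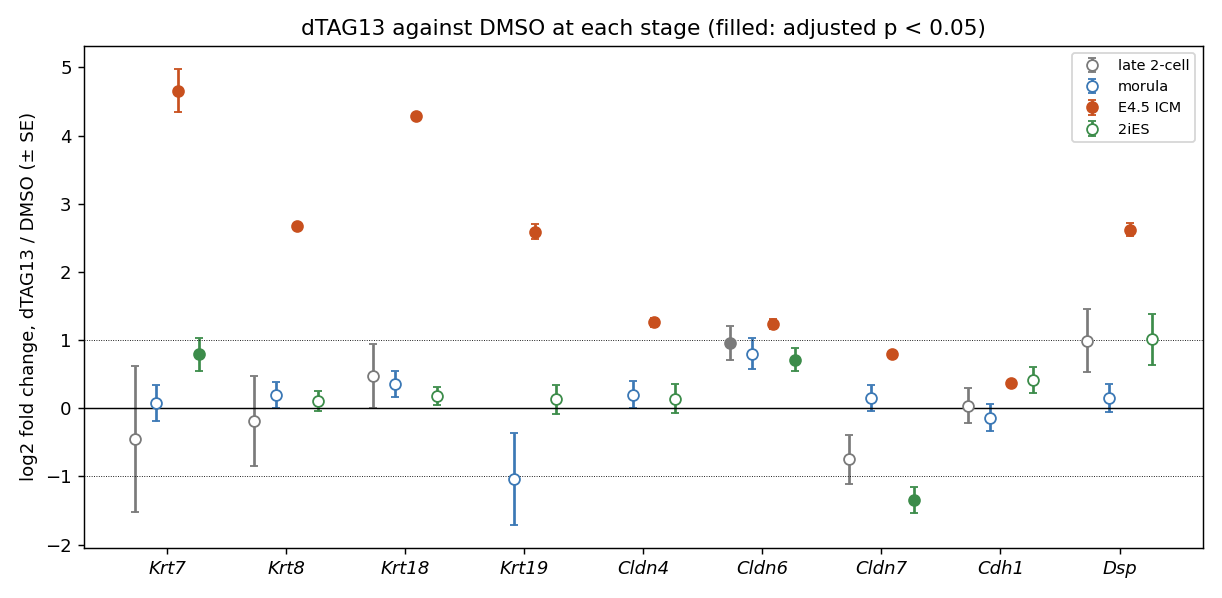
Log2 fold change with dTAG13 against DMSO (vertical axis, bars SE from edgeR) for each gene at the L2C stage, in morulae, in the E4.5 ICM and in 2iES cells, with filled points at an adjusted p under 0.05; *Krt19* and *Cldn4* were not tested at the L2C stage. In the ICM all 9 points are filled and above 0, from 0.37 for *Cdh1* to 4.66 for *Krt7*, and in 2iES cells *Cldn7* is the 1 filled point below 0, at -1.34.

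In 2iES cells the keratin pair did not pass the test. *Krt18* stood at 98.3 and 76.8 TPM with DMSO and at 95.2 and 92.0 TPM with dTAG13 (log2 0.18, SE 0.13, adjusted p 0.284), and *Krt8* at 36.9 and 27.4 TPM and at 34.1 and 31.4 TPM (0.11, SE 0.15, 0.586). For both genes the dTAG13 libraries lay between the DMSO libraries, of which replicate 1 was higher. Without DMSO replicate 1, *Krt8* (0.29, adjusted p 0.008), *Krt18* (0.32, adjusted p 0.000589) and *Cldn4* (0.45, adjusted p 0.000511) passed the adjusted p under the fold limit, and without DMSO replicate 2, *Krt8*, *Krt19* and *Cldn4* turned to small negative values.

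*Cldn7* was the 1 gene called in 2iES cells, and it was lower, as were 15.6% of all 15511 genes tested. It stood at 19.2 and 13.2 TPM with DMSO and at 6.18 and 5.37 TPM with dTAG13, without overlap (2.53-fold lower, log2 -1.34, SE 0.19, edgeR adjusted p 0.00142). Its share of the TPM of the 3 claudins went from 31.1% and 31.6% in the DMSO libraries to 13.4% and 11.3% with dTAG13. *Cldn4*, the most abundant of the 3 in these cells, stood at 34.3 and 22.0 TPM and at 27.8 and 30.98 TPM (0.14, adjusted p 0.58).

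Higher with dTAG13 in 2iES cells at an adjusted p under 0.05 were 2 of the 9 genes, beside 26.5% of all genes, and none was called, beside 12.4% called higher. *Cldn6* went from 8.33 and 6.60 TPM to 12.0 and 11.04 TPM (log2 0.71, adjusted p 0.0114), and *Krt7* from 1.58 and 1.05 TPM to 2.33 and 2.00 TPM (0.79, adjusted p 0.0279). Both lost the adjusted p without either dTAG13 library (*Cldn6* 0.133 and 0.085, *Krt7* 0.151 and 0.0796). *Dsp* (1.01, adjusted p 0.0554), *Cdh1* (0.42, 0.0915) and *Krt19* (0.13, 0.611) did not pass. *Dsp* passed with the replicate block (0.0487), without a count filter (0.0399), with library totals (0.0489) and without DMSO replicate 2 (0.0178) or dTAG13 replicate 1 (0.04), and *Cdh1* without DMSO replicate 2 (1.56e-06). *Cldn7* was the only 1 of the 9 lower at an adjusted p under 0.05, as were 28.1% of all genes.

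**Figure D3:**
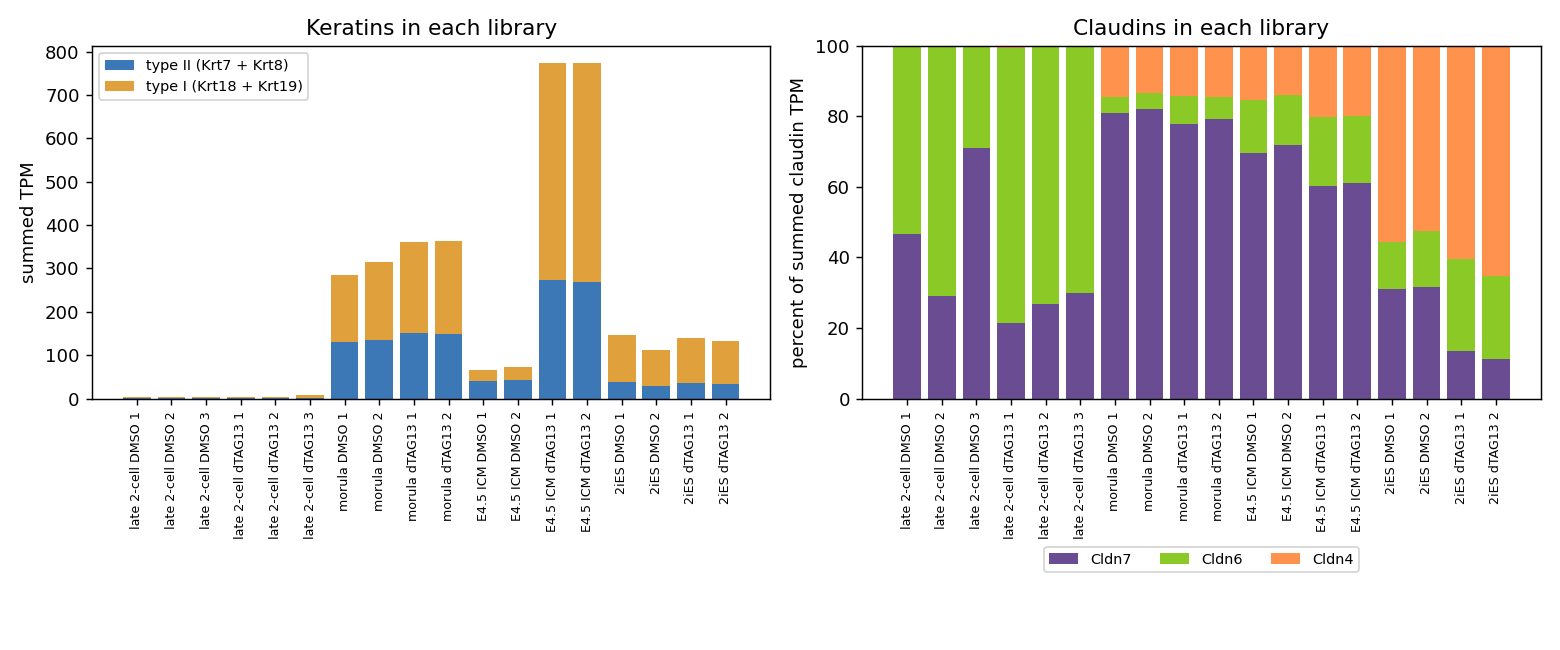
Left, summed TPM of the type II (*Krt7* and *Krt8*) and type I (*Krt18* and *Krt19*) keratins in each library; right, the percent that *Cldn7*, *Cldn6* and *Cldn4* take of their summed TPM. The 2 dTAG13 ICM libraries reach a mean keratin sum of 774 TPM, and *Cldn7* takes 11.3% and 13.4% of the claudin TPM in the dTAG13 2iES cells.

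In morulae none of the 9 genes passed the adjusted p or was called with edgeR, beside 0.366% of all 13667 genes that passed and 0.351% that were called. DESeq2 called none as well, and 1 gene had an unadjusted p under 0.05. That gene was *Cldn6*, at 12.4 and 15.1 TPM with DMSO and 25.6 and 21.4 TPM with dTAG13 (log2 0.80, SE 0.23, adjusted p 0.163), whose groups did not overlap. *Krt18* stood at 153 and 181 TPM and at 211 and 214 TPM (0.35, SE 0.19, adjusted p 0.434), and *Krt8* at 128 and 131 TPM and at 148 and 146 TPM (0.19, adjusted p 0.697). *Krt19* was lower in both dTAG13 libraries, at 0.59 and 0.83 TPM against 2.11 and 1.18 TPM (-1.04, SE 0.67, adjusted p 0.52).

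At the L2C stage 7 of the genes had enough counts to be tested, 1 passed the adjusted p (8.56% of all 17421 genes) and none was called with edgeR (4.11% of all genes). DESeq2 called none, and 1 gene had an unadjusted p under 0.05. *Cldn6* stood at 11.8, 17.4 and 8.86 TPM with DMSO and at 28.7, 22.2 and 28.2 TPM with dTAG13, without overlap (1.95-fold, log2 0.96, SE 0.25, adjusted p 0.0391). It kept the adjusted p without DMSO replicate 2 but lost it without each of the other 5 libraries in turn (0.0778 to 0.146). *Cldn7* stood at 10.4, 7.10 and 21.7 TPM and at 7.90, 8.16 and 12.1 TPM (-0.75, adjusted p 0.26). *Krt8* stayed at or under 0.54 TPM in all 6 libraries, and *Krt19* and *Cldn4* were not tested.

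*Cldn6* was thus higher in every dTAG13 library than in every DMSO library at all 4 stages, as were 1.26% of the 11310 genes tested at each of them. Its group means ranged from 7.47 TPM in control 2iES cells to 35.3 TPM in the dTAG13 ICM. Its adjusted p passed at 3 of the stages and its fold change reached 2 in the ICM only.

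The difference between the dTAG13 effects of stages was tested in the fit of all 18 libraries. The effect in the ICM was larger than in 2iES cells for 5 of the 9 genes, beside 7.42% of all 21915 genes, with edgeR adjusted p of 1.90e-05 for *Krt18* (difference 4.06, SE 0.46), 1.30e-05 for *Krt8* (2.53, SE 0.27), 0.00179 for *Cldn7* (2.08), 0.02 for *Krt7* (3.82) and 0.0412 for *Cldn4* (1.07). It was larger in the ICM than in the morula for 5 genes, beside 5.44% of all genes, namely *Krt18* (3.87), *Krt8* (2.42), *Dsp* (2.40), *Krt7* (4.51) and *Krt19* (3.55). The median of the 9 differences was 2.08 for the ICM against 2iES cells and 2.40 for the ICM against the morula, beside -0.08 and -0.04 for all genes. *Krt19* (adjusted p 0.0587) and *Dsp* (0.0543) missed the threshold against 2iES cells and *Cldn4* (0.0604) against the morula. *Cldn4* passed there with DESeq2 (0.00274), without a count filter (0.00401), with DESeq2 size factors (0.0396), with library totals (0.0271) and with the libraries of the 2 stages only (0.0019). Against 2iES cells *Dsp* passed with the replicate block (0.0426), DESeq2 (0.0217), no count filter (0.00312), library totals (0.0478) and the 2 stages only (0.00547), and *Krt19* with no count filter (5.46e-05) and the 2 stages only (7.75e-05). Without single libraries, *Krt7* (0.0549 to 0.0917 in the 6 cases that lost it) and *Cldn4* (0.0897 to 0.201) lost the adjusted p against 2iES cells, and *Krt19* lost it against the morula without each library but morula DMSO replicate 2 (0.0579 to 0.195). For *Cldn6* the difference between ICM and 2iES cells was 0.49 (adjusted p 0.402).

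The order of the group means showed which neighbours were apart. For *Krt18* the dTAG13 ICM came first, followed by dTAG13 morulae and control morulae, and the libraries of these 3 groups did not overlap. The 2 groups of 2iES cells came next and overlapped, and the control ICM stood below them at a mean of 23.8 TPM. *Krt8* began with the same 3 groups, followed in TPM by the control ICM (40.9) and the 2iES cells, an order that the fitted difference did not share. *Cldn7* had the morula groups first and overlapping, then the dTAG13 ICM and the control ICM, and last the groups of 2iES cells and L2C embryos, of which dTAG13 2iES cells were the lowest. *Cdh1* had its highest mean in TPM in the dTAG13 ICM, at 28.9 TPM, a place above the control morula that the fitted differences did not share. *Dsp* had its highest mean in the dTAG13 morula, at 6.35 TPM, which overlapped the control morula.

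Over the 8 group means of log2(TPM + 1), *Krt8* and *Krt18* were correlated at a Pearson r of 0.96, *Krt8* and *Cdh1* at 0.98 and *Cldn7* and *Dsp* at 0.92, whereas *Cldn6* lay between -0.07 and 0.57 with the others. All these points come from the same libraries. Among 9814 genes whose mean FPKM reached 10 in any group, the 3 most like *Krt18* were *Sult4a1* (0.9732), *Anxa8* (0.9717) and *Rpl14-ps1* (0.9713). Those most like *Cdh1* were *Sqstm1* (0.9984), *Marcks* (0.997) and *Ten1* (0.9932), and those most like *Cldn7* were *Gm29243* (0.9846), *Rfk* (0.9838) and *Calcoco2* (0.9826).

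Other keratins and junction genes were counted from hand-written lists. In the ICM with dTAG13, of 7 other keratins tested 2 were called higher and 2 lower, of 22 tight junction genes 5 and 2, of 16 adherens junction genes 4 and 1, of 13 desmosome genes 3 and 0, of 18 polarity genes 1 and 0, and of 14 epithelial and mesenchymal regulators 1 and 2. At an adjusted p under 0.05 alone, the numbers higher and lower were, in the same order, 4 and 2, 11 and 4, 13 and 3, 6 and 6, 11 and 2, and 7 and 6. The medians of these lists were 1.64, 0.21, 0.47, -0.18, 0.24 and 0.13 on the log2 scale, all below the 2.59 of the 9 genes. The 9 genes and the lists were chosen with earlier results of these data known, so the medians are a description only. *Perp*, a desmosomal membrane protein and p53 target, went from 3.96 and 4.04 TPM to 30.7 and 28.7 TPM (log2 2.85, adjusted p 2.93e-27). *Cgn* (cingulin, 2.35), *Ocln* (occludin, 1.66), *Krt23* (2.11), *Krt13* (1.64), *Dsc2* (1.59), *Ctnnbip1* (1.21), *Pard3* (1.21) and *Afdn* (1.16) were higher, and *Jam2* (-1.26), *Fn1* (-1.35) and *Ovol2* (-1.03) lower.

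In 2iES cells, of 5 other keratins 0 were called higher and 2 lower, of 22 tight junction genes 2 and 2, of 16 adherens junction genes 1 and 1, of 13 desmosome genes 3 and 2, of 18 polarity genes 4 and 1, and of 15 regulators 2 and 0. *Perp* rose here too (2.96, adjusted p 2.23e-05), with *Scrib* (3.34), *Pard6g* (2.95) and *Pkp2* (1.35), while *Epcam* (-1.08), *Crb3* (-1.61), *Pkp3* (-1.29) and *Jup* (-1.0) fell together with *Cldn7*. EPCAM is an adhesion protein known to bind claudin-7. In morulae none of the 81 genes of these 6 lists that were tested passed the adjusted p with edgeR or DESeq2, and 15 had an unadjusted p under 0.05. At the L2C stage 5 of 79 passed with edgeR and 6 with DESeq2. *Krt10*, a type I keratin of the stratified epidermis, was lower with dTAG13 at the L2C stage (31.1, 35.8 and 32.3 TPM against 5.39, 5.25 and 5.69 TPM, log2 -2.61), in the ICM (-5.76) and in 2iES cells (-7.09, 27.9 and 25.0 TPM against 0.06 and 0.02 TPM).

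**Figure D4:**
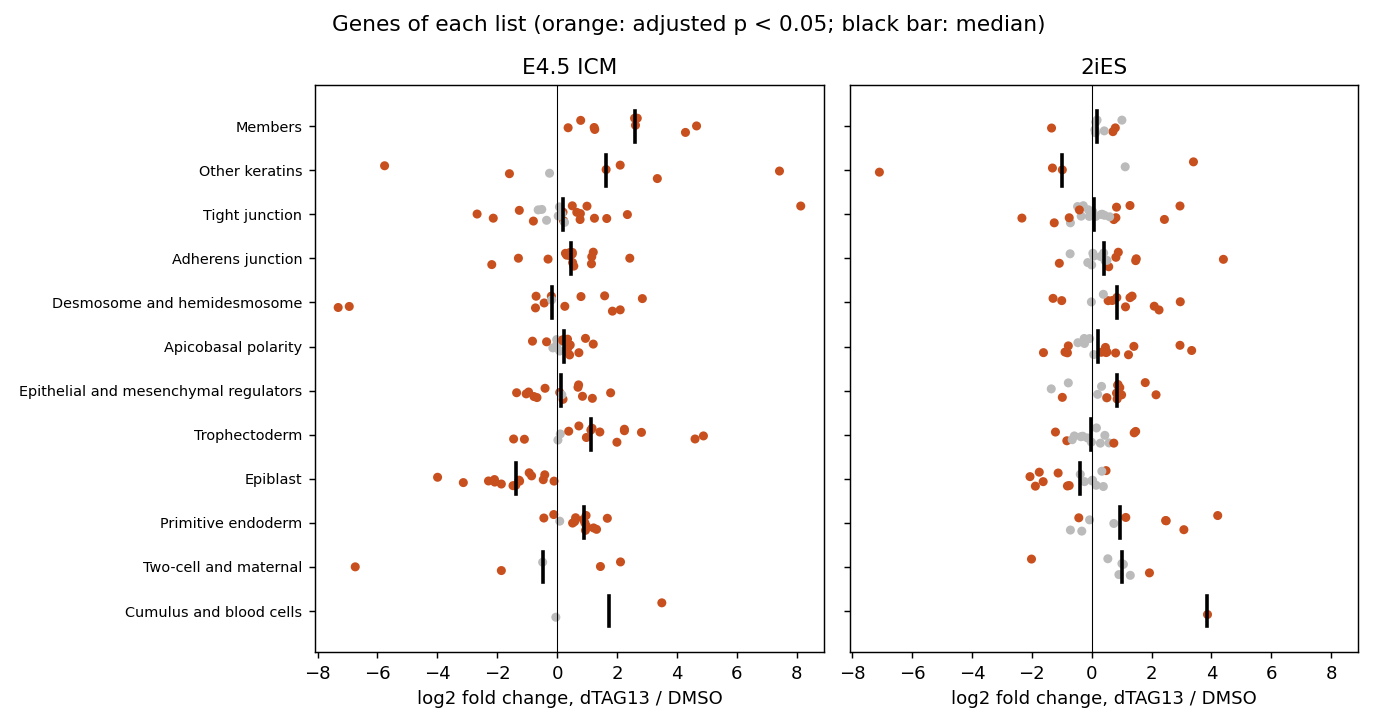
Log2 fold change with dTAG13 (horizontal axis) of every tested gene of each list, with the 9 genes as Members (points; orange at an adjusted p under 0.05; black bars at medians) in the ICM and in 2iES cells. In the ICM the TE list has its median at 1.15 and the epiblast list at -1.38, with every epiblast gene below 0.

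Keratins and claudins are also genes of the TE, and marker lists of the cell types of the blastocyst were therefore read beside them. In the ICM the summed level of 18 TE markers was 151 TPM in both DMSO libraries and 217 to 220 TPM with dTAG13, and of 16 tested 8 were called higher and 2 lower. *Elf5* (0.02 and 0.17 TPM to 6.96 and 5.64 TPM), *Gata3* (1.56 and 1.52 to 11.04 and 11.4) and *Cdx2* (0.29 and 0.60 to 1.78 and 2.57) were higher, *Slc2a1* (-1.45) and *Aqp3* (-1.09) were lower, and *Hand1* and *Esx1* stayed at or under 0.09 TPM. The epiblast list summed to 1370 to 1420 TPM with DMSO and to 688 to 692 TPM with dTAG13, with all 15 genes lower at an adjusted p under 0.05 and 10 called, *Prdm14* (-3.99) and *Bmp4* (-3.13) most. The PrE list summed to 2100 to 2140 and to 3790 to 3820 TPM, with 3 of 14 called higher, among them *Dab2* (1.68) and *Srgn* (1.32). At an adjusted p under 0.05, 11 of its genes were higher and 2 were lower, *Sox7* (-0.44, adjusted p 3.37e-09) and *Sox17* (-0.11, 0.00278), both endoderm regulators. The part of TE or PrE cells in the rise of the 9 genes was not tested.

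In 2iES cells the TE list summed to 73.8 to 85.6 TPM with DMSO and 90.9 to 92.4 TPM with dTAG13, and *Elf5* was at 0 in both DMSO libraries. Of 15 TE genes tested there 2 were called higher, among them *Gata2* (1.42), and 1 lower, *Eomes* (-1.21, adjusted p 0.00743), and *Tead4* was lower without being called (-0.83, 0.0133). Of the 15 epiblast genes tested, 5 were called lower, among them *Utf1* (-1.88) and *Bmp4* (-2.06), and 0 higher. At an adjusted p under 0.05, 7 were lower and 1, *Klf4*, was higher (0.48, edgeR adjusted p 0.0335). Of the PrE list, 3 of 10 tested were called higher, while its sum was 165 to 206 TPM with DMSO and 128 to 132 TPM with dTAG13, most of it *Sparc* (-0.43, adjusted p 0.00995). In morulae the TE list summed to 190 to 229 TPM and to 171 to 180 TPM, and *Cdx2* was at 4.01 to 4.64 TPM in all 4 libraries, beside keratin levels that did not pass the test there.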

How the data were processed

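RNA was measured in 18 libraries, 3 per group at the L2C stage and 2 per group in morulae, ICM and 2iES cells, and groups were taken from the labels. The authors trimmed reads with Trimmomatic 0.39 (version per the submitters' processing notes), used STAR for alignment to GRCm38 and RSEM for the quantification of genes. They deposited expected counts, TPM and FPKM, with posterior means, standard deviations and credibility bounds of these that were not used here. Libraries were made with the SMART-Seq v4 and Nextera XT kits, without strand or molecular identifiers, so the 1 interval printed covers counting error only. Of 55385 identifiers, 55144 were named from GENCODE M21 by the identifier without its version. The annotation release behind the files is not given in the sources used here. The chromatin libraries were not analysed here.

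Expected counts were rounded and tested in R 4.3.3 with edgeR 4.0.16 (quasi-likelihood, TMM, Benjamini-Hochberg over all genes tested, two-sided), within each stage for dTAG13 and in 1 fit of all 18 libraries between stages. Genes needed at least 10 counts in as many libraries as the smaller group (2 libraries for the fit of all). The difference between stages in the dTAG13 effect had no fold limit. DESeq2 1.42.0, limma 3.58.1 on log2(FPKM + 0.1) and log2(FPKM + 1), other scalings, filters, thresholds and libraries were alternatives. The fits within each stage were also run on simulated counts, with 1 spread for all genes of a stage and known changes in genes above a count limit. Those runs do not cover changes in genes with low counts or the fit of all 18 libraries. Tables were handled with Python 3.11.15 (pandas 2.3.3, numpy 2.4.6, scipy 1.17.1, matplotlib 3.10.9). Sequence shared between genes was counted in words of 31 bases over all annotated transcripts. Same-numbered replicates did not deviate together (correlations 0.054 to 0.125 at the L2C stage, 0.025 in morulae, -0.046 in the ICM and -0.234 in 2iES cells).

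The 9 genes and all lists were chosen with earlier results of these data known. Named genes are the 9, *Gabpa*, from each list and stage at most 2 called genes in each direction with the largest change, a mean FPKM of at least 5 and no overlap, and the 3 genes most like *Krt18*, *Cdh1* and *Cldn7*. *Gata3*, *Cdx2*, *Hand1*, *Esx1*, *Sox7*, *Sox17*, *Eomes*, *Tead4*, *Klf4* and *Hba-a1*, and *Elf5* and *Sparc* in 2iES cells, were named after their values were seen. A gene that the rule names is not reported here.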

Additional observations from a re-analysis of the deposited data

Results flagged for a closer look

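The effect of dTAG13 was larger in the ICM, by a test of the difference itself in edgeR, than in 2iES cells for 5 of the 9 genes (7.42% of all genes) and than in morulae for 5 (5.44% of all genes). The differences are ICM minus the other stage, on the log2 scale. Against 2iES cells they were 3.82 for *Krt7* (SE 1.07, adjusted p 0.02), 2.53 for *Krt8* (0.27, 1.30e-05), 4.06 for *Krt18* (0.46, 1.90e-05), 1.07 for *Cldn4* (0.35, 0.0412) and 2.08 for *Cldn7* (0.4, 0.00179). Against the morula they were 4.51 for *Krt7* (1.07, 0.00747), 2.42 for *Krt8* (0.27, 1.11e-05), 3.87 for *Krt18* (0.45, 1.74e-05), 3.55 for *Krt19* (1.02, 0.0234) and 2.40 for *Dsp* (0.47, 0.00182). Without single libraries *Krt7* and *Cldn4* lost the adjusted p against 2iES cells (up to 0.0917 and 0.201) and *Krt19* against the morula (up to 0.195). *Cldn7* was higher with dTAG13 in the ICM and lower in 2iES cells, and *Krt19* was higher in the ICM and had lower values in morulae (-1.04, adjusted p 0.52), in each case without overlap of the libraries. The windows of treatment differ between stages, as do embryos and cultured cells, and their part in the differences cannot be told apart.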

How the results depend on the processing

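Counts of called genes were the same or within 1.5 times under 99 of 112 alternatives. At the L2C stage the count of 0 became 1 with the adjusted p alone, with a replicate block and with library totals, and was 0 to 1 without single libraries (1 without DMSO replicate 2). In 2iES cells 1 became 3 with the adjusted p alone, and was 1 to 2 without single libraries (2 without DMSO replicate 1). For the ICM against 2iES cells, the 5 differing genes became 8 with the libraries of the 2 stages only, and 3 to 5 without single libraries, 3 without each of ICM DMSO 1 and 2, ICM dTAG13 2, 2iES DMSO 1 and 2iES dTAG13 1 and 2. *Krt7* (adjusted p 0.0549 to 0.0917) and *Cldn4* (0.0897 to 0.201, and 0.055 with the block) were lost there. In the ICM 7 genes were called under every alternative but the adjusted p alone (9).

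The labels do not say whether replicate numbers pair the samples, and same-numbered libraries did not deviate together. With the replicate block *Cldn6* passed in morulae (adjusted p 0.0467), and the ICM count was 7. The other pairing, chosen after seeing the data, gave counts of 0 in morulae, 7 in the ICM and 1 in 2iES cells. *Krt19* for the ICM against the morula was lost in DESeq2 (0.0922).

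Of 954 alternative values of single genes, 864 kept direction and side of the threshold, and 15 reversed, none of them past the threshold. Ranges without single libraries, with the libraries whose absence turned the sign, were at the L2C stage -1.03 to 0.45 for *Krt7* (DMSO 3), -0.49 to 0.15 for *Krt8* (DMSO 1, 0.11, and dTAG13 3), -0.23 to 0.86 for *Krt18* (dTAG13 3) and -0.16 to 0.26 for *Cdh1* (DMSO 3, and dTAG13 1, -0.08). In morulae they were -0.06 to 0.25 for *Krt7* (dTAG13 2, and DMSO 1, -0.01) and -0.30 to 0.04 for *Cdh1* (DMSO 1). In 2iES cells, all without DMSO 2, they were -0.10 to 0.29 for *Krt8*, -0.10 to 0.35 for *Krt19* and -0.16 to 0.45 for *Cldn4*. *Krt8* from control ICM to 2iES cells was -0.21 with library totals, where the median of all genes was -0.27, and *Cdh1* for the ICM against 2iES cells was 0.0 without a count filter and -0.40 to 0.16 without single libraries (0.16 without 2iES DMSO 1). The cause was not tested. At the L2C stage the low counts of *Krt7*, *Krt8*, *Krt19* and *Dsp* limit what could be detected, and *Dsp* passed there without DMSO replicate 3 (1.71, adjusted p 0.0351).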

Other observations

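Lists of transcripts from other sources were also read. The L2C libraries held 1520 to 1830 TPM of 12 maternal and 2-cell genes with DMSO and 2080 to 2250 TPM with dTAG13, and none of the 12 was called with edgeR. In the ICM the same genes summed to 7.26 to 7.30 TPM and to 5.01 to 5.61 TPM. Of 5 tested there, 1 was called higher and 1 lower, the latter *Zp3*, a protein of the egg coat (log2 -1.86). *Zp3* was lower in 2iES cells too (-2.01), where *Zscan4d*, a gene of the 2-cell programme, was higher (1.93, adjusted p 0.0256). Of 8 genes of cumulus and blood cells, the haemoglobin gene *Hba-a2* was higher with dTAG13 both in the ICM (3.50) and in 2iES cells (3.84), at 5.85 to 8.84 TPM in the dTAG13 libraries. It was the 1 gene of the list tested in 2iES cells. The other of the 2 tested in the ICM, the haemoglobin gene *Hba-a1*, did not pass (-0.04). *Sparc*, a matrix protein of the PrE list, was called higher at the L2C stage (1.63, adjusted p 0.00342).

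The type I keratins moved apart in the ICM. *Krt18* and *Krt19* rose while *Krt10* fell from 12.3 and 13.5 TPM to 0.39 and 0.12 TPM (adjusted p 5.40e-17).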
